A study of Homo sapiens with 5 samples.

Results

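The genes examined here were 36 protein-coding genes that make, take up, store or export cholesterol, of 20163 protein-coding genes in the annotation. They were listed by function and not by their peaks, though earlier results of these data were known when they were chosen. Peaks of steroidogenic factor-1 (SF-1), a nuclear receptor encoded by NR5A1, were located in H295R/TR SF-1 cells. This subclone of the established human adrenocortical tumor line H295R makes additional SF-1 in the presence of doxycycline. Basal chromatin came from cells without doxycycline and overexpressed chromatin from cells kept in it for 3 days. For either dosage, 2 antibodies against SF-1 were used, called Millipore and Perseus as in the sample titles. The paper names the suppliers as Millipore and R&D Systems. The authors called 1 peak list on 3 pooled libraries per combination. All 4 lists therefore come from 1 subclone grown in the same medium, and none has a replicate.

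The basal and overexpressed Millipore lists held 4393 and 11910 peaks, and the basal and overexpressed Perseus lists 6616 and 7453. The read depth behind them is unknown. The lists give for each peak a rank that begins at 1, and the quantity ranked is not stated. Peak starts lie on a grid of 50 bp. Because each group is a single list, no difference between lists was tested, and intervals on shares are 95% Wilson intervals for counting error only. The lists hold no transcripts, so the cell line was not checked against expressed markers.

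Cells of the adrenal cortex use cholesterol as the substrate for every steroid hormone. They build it from acetyl-CoA through mevalonate, squalene and lanosterol, or take it from lipoproteins, and keep the surplus as cholesteryl esters in lipid droplets. When membrane sterol falls, SCAP carries the SREBP proteins out of the endoplasmic reticulum, and the fragments then cleaved from them switch on synthesis and uptake genes; INSIG proteins hold SCAP back when sterol is plentiful. SF-1 is best known for the genes that turn cholesterol into steroids, which lie downstream of those described here.

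Distances were taken from the centre of a peak to the outermost annotated start of a gene on hg19. Within 1 kb of a start, a window that holds most promoters, the overexpressed Millipore list had a peak at 4 of the 36 genes, against 8.19% of all protein-coding genes. These were HMGCS1, LSS, SREBF1 and STARD4. The basal Perseus list had one at 5 genes, against 9.56% of all genes, namely CYP51A1, DHCR7, IDI1, MVD and SC5D. The overexpressed Perseus list had one at 5 as well, against 10.5%, namely CYP51A1, IDI1, LSS, MVD and NPC1. The basal Millipore list had none, against 1.02%. As shares, these counts were 11.1% (4.41 to 25.3%), 13.9% (6.08 to 28.7%) and 13.9% (6.08 to 28.7%) for the first 3 lists and 0% (0 to 9.64%) for the basal Millipore list. The promoters of the genes were somewhat richer in GC than those of all genes, with a median of 61.2% against 59.2%. When all genes were weighted to the promoter GC of the cholesterol genes, their shares were 9.88%, 11.7% and 12.7%, and 1.08% for the basal Millipore list. The counts at promoters were thus close to those of other genes with similar promoters in all 4 lists.

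Within 10 kb the counts of the Perseus lists were above the background, but this depended on the lower-ranked peaks. With the better-ranked 50% of each list, the basal Perseus count fell to 5 genes (13.9% against 9.51% of all genes) and the overexpressed Perseus count to 4 (11.1% against 10.4%). With the full lists, the basal Perseus list had a peak near 12 of the 36 genes, or 33.3% (20.2 to 49.7%), against 15.5% of all protein-coding genes and 17.9% after weighting by promoter GC. The overexpressed Perseus list had one near 11 genes, or 30.6% (18.0 to 46.9%), against 17.1% and 19.8%. The weighted share lay below the interval for the basal list and inside it for the overexpressed list. In the overexpressed Millipore list 9 genes, or 25.0% (13.8 to 41.1%), had a peak within 10 kb, against 19.0% and 21.5%. In the basal Millipore list 2 genes did, SCAP and STARD3, against 4.38% and 4.63%. In any of the lists a peak lay within 10 kb of 23 genes, or 63.9%, against 35.2% of all genes. Of these, 13 had such peaks in Perseus lists alone, or 36.1% of the 36 against 13.8% of all genes, and 6 in Millipore lists alone, or 16.7% against 11.0%.

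Agreement between lists was counted by gene. Within 1 kb, CYP51A1, IDI1 and MVD had a peak in both Perseus lists, against 4.86% of all genes, LSS had one in both overexpressed lists, against 3.18%, and no gene had one in all 4, against 0.184%. Within 10 kb, 6 genes (CYP51A1, IDI1, LSS, MVD, SCAP and SOAT1) had a peak in both Perseus lists, against 8.40%. LSS, NSDHL and SCAP had one in both overexpressed lists, against 7.46%. The overexpressed peaks of the 2 antibodies overlapped at LSS, but not at NSDHL or SCAP. For CYP51A1, LSS and SCAP the Perseus peaks of the 2 dosages within 10 kb did not overlap each other.

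Within 100 kb the overexpressed lists had a peak near most of the genes, as they had near most genes of the genome. The counts were 13 genes in the basal Millipore list (36.1% against 30.7% of all genes), 26 in the overexpressed Millipore list (72.2% against 61.5%), 20 in the basal Perseus list (55.6% against 47.2%) and 26 in the overexpressed Perseus list (72.2% against 51.2%). After weighting by promoter GC the shares of all genes were 32.2%, 65.6%, 51.2% and 55.5%. In any list 33 of the 36 genes had such a peak, against 79.9% of all genes, and EBP, LIPA and MSMO1 had none. Both Perseus lists had one for 18 genes, against 35.8%, both overexpressed lists for 20, against 40.7%, and all 4 lists for 8, against 15.1%. Over all lists 204 peaks lay within 100 kb, and for 69 of them, or 33.8%, the nearest protein-coding start was that of the cholesterol gene itself. With only such peaks counted, the overexpressed Perseus list had one within 100 kb of 16 genes, or 44.4% against 21.5% of all genes, and the overexpressed Millipore list near 15, or 41.7% against 29.0%. The corresponding counts at basal dosage were 4 for Millipore (11.1% against 11.4%) and 11 for Perseus (30.6% against 19.2%). The number of other protein-coding starts within 100 kb was similar to that of all genes, with a median of 2.5 against 3.

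**Figure D1:**
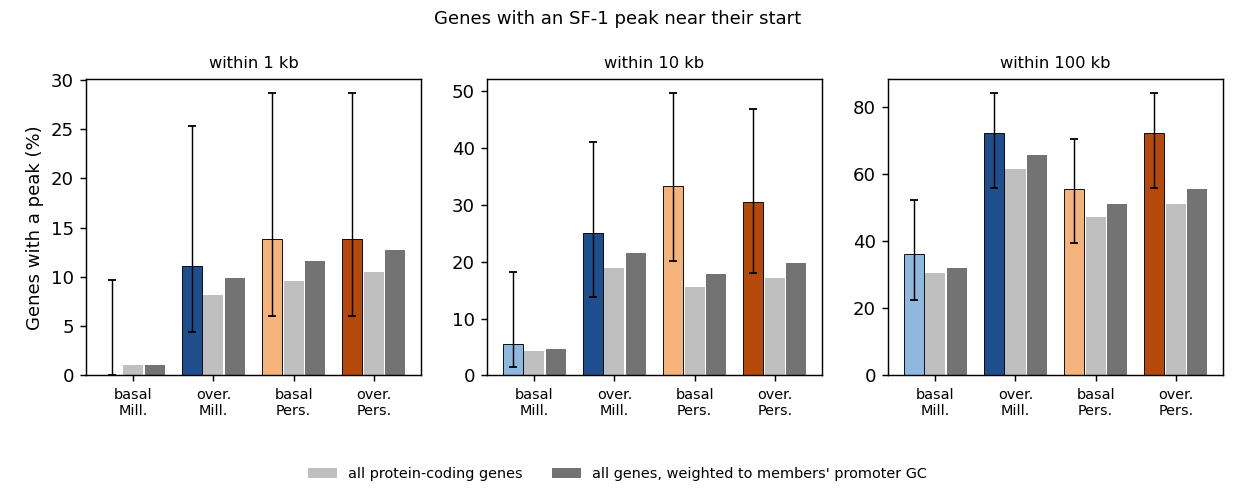
Percent of genes with an SF-1 peak centre within 1, 10 or 100 kb of the start (vertical axes, from 0, each panel with its own scale) in the basal and overexpressed (over.) Millipore (Mill.) and Perseus (Pers.) lists. Coloured bars are the 36 cholesterol genes with 95% Wilson intervals, light grey bars all 20163 protein-coding genes and dark grey bars the same weighted to the cholesterol genes' promoter GC. The interval lies above both grey bars for the basal Perseus list within 10 kb, at 33.3%, and for the overexpressed Perseus list within 100 kb, at 72.2%, and reaches at least one of them elsewhere.

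With the Millipore antibody the longer overexpressed list went with more genes near a peak, 9 against 2 within 10 kb and 26 against 13 within 100 kb. Over all genes the share rose as well, from 4.38% to 19.0% within 10 kb. When every list was cut to its 4393 best-ranked peaks, the overexpressed Millipore list had a peak within 10 kb of LIPE alone of the 36, against 8.22% of all genes, and none within 1 kb, against 3.26%. Within 100 kb it then had one near 20 of the 36, or 55.6%, against 35.6% of all genes, where the basal Millipore list had 13. The Perseus lists then had 7 genes at basal and 4 at overexpressed dosage within 10 kb, against 11.8% and 11.9% of all genes. Some genes lay close to a limit. At 1 kb the last gene inside was CYP51A1 at 842 bp in the overexpressed Perseus list, and the first outside were SCAP at 1016 bp in the overexpressed Millipore list and LSS at 1112 bp in the basal Perseus list. At 10 kb SCAP at 9716 bp in the basal Perseus list was inside and FDPS at 10236 bp in the basal Millipore list was outside. At 100 kb ACAT2 at 93248 bp and LSS at 94063 bp in the basal Millipore list were inside and HMGCS1 at 105136 bp in the basal Perseus list was outside.

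**Figure D2:**
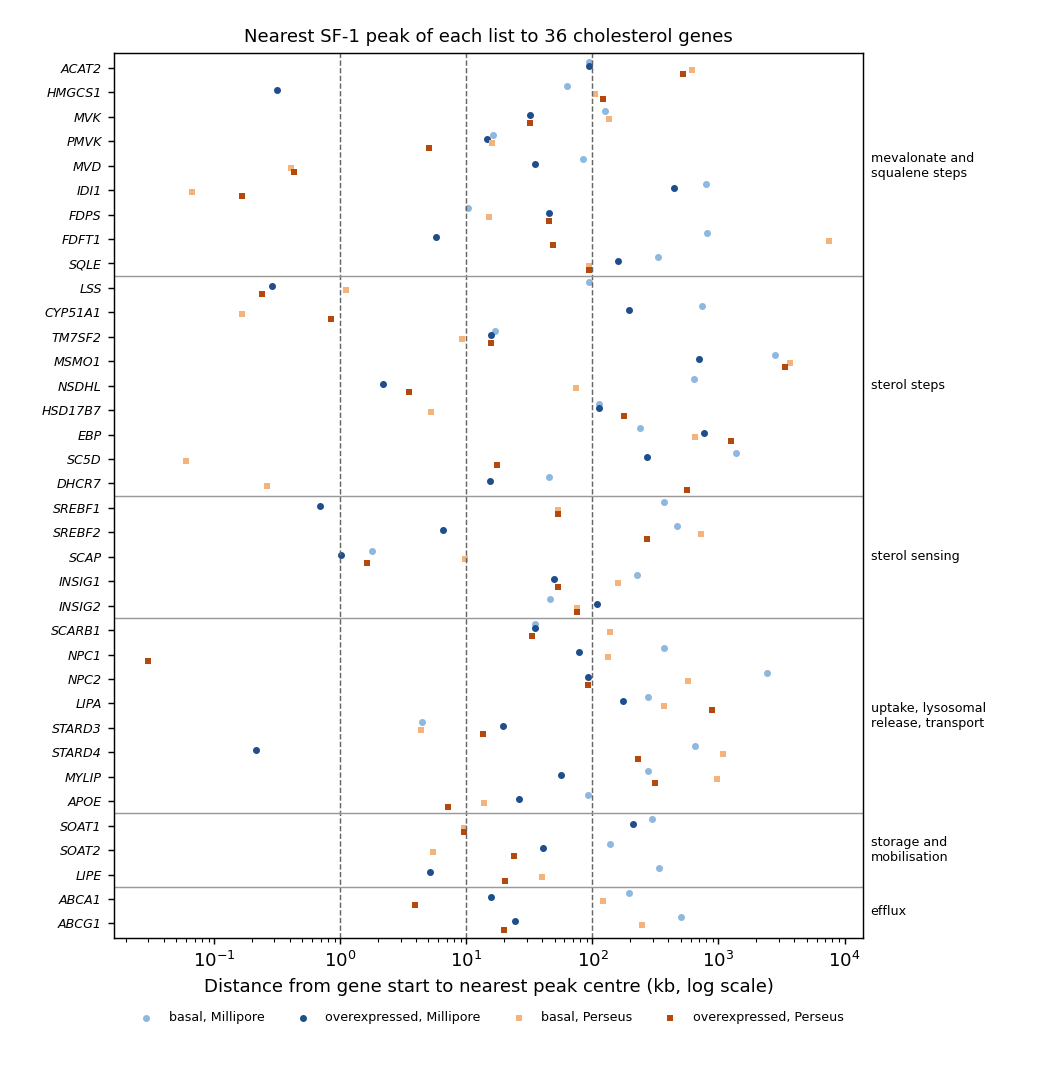
Distance from the start of each of the 36 genes to the nearest peak centre of each list (horizontal axis in kb, log scale), with genes in rows grouped by role, circles for Millipore and squares for Perseus, light for basal and dark for overexpressed. Dashed lines mark 1, 10 and 100 kb, and the closest peak of all is that of NPC1 in the overexpressed Perseus list, 30 bp from the start.

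The first group makes squalene through mevalonate. Of its 9 genes, 3 had a peak within 1 kb in some list (HMGCS1, IDI1 and MVD), 5 within 10 kb and all 9 within 100 kb, where the shares of all genes in any list were 19.8%, 35.2% and 79.9%. IDI1, the isopentenyl diphosphate isomerase, had a peak 66 bp upstream of its start in the basal Perseus list and 166 bp upstream in the overexpressed Perseus list, with ranks 3224 and 4907. Its nearest Millipore peaks lay 802609 bp away at basal and 443341 bp away at overexpressed dosage, so the promoter was found with one antibody only. The same held for MVD, which decarboxylates mevalonate diphosphate. Its Perseus peaks lay 406 and 431 bp upstream at basal and overexpressed dosage (ranks 2745 and 6138), while its nearest Millipore peaks were 84856 and 34794 bp away. A site 43306 bp upstream of MVD, 16 bp from the start of CTU2, was in 3 lists, at rank 774 with Millipore at overexpressed dosage and at 1290 and 4393 with Perseus. Both Perseus lists also had a site 92869 bp past its start, 111 bp from that of ZC3H18, at ranks 6356 and 818. HMGCS1, the synthase that makes HMG-CoA, showed the other pattern. A peak in an intron 314 bp past its start was present in the overexpressed Millipore list at rank 10157 of 11910, against 63211 bp for the nearest basal Millipore peak and 105136 and 121314 bp for the Perseus lists.

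The stretches of the IDI1 and MVD promoter peaks that both Perseus lists share are printed here because they are the promoter sites of the synthesis genes found at both dosages. Both are written 5′ to 3′ on the strand of the gene, which is the minus strand of hg19, and lie outside annotated exons. Capitals mark a CCAAT box on either strand, a short promoter element.

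IDI1, chr10:1095151-1095199: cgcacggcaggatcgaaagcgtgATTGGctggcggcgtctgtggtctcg

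MVD, chr16:88729951-88730049: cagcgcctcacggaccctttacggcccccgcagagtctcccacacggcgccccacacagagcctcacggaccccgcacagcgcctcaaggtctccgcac

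Neither stretch held the SF-1 consensus. The consensus searched on both strands was the 9-base word TCAAGGTCA in which the first and the seventh base could be C or T and the last A or G, with AAGGTCA as its core.

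PMVK, the kinase before MVD, had the most peaks of any of the 36 genes, 19 over the lists. The nearest lay 5005 bp upstream in the overexpressed Perseus list at rank 5893. Farther out, a site 64380 bp upstream, near the start of ZBTB7B, ranked 515 with Millipore at overexpressed dosage and 161 and 2409 with Perseus at basal and overexpressed dosage. Another in the 3′ end of ZBTB7B, 80730 bp upstream, ranked 3238, 296 and 477 in those 3 lists. Both Perseus lists shared a further site 64955 bp upstream at ranks 930 and 5481, with the consensus in the basal peak only. PMVK has 10 other protein-coding starts within 100 kb, against a median of 3 over all genes, and only its 5005 bp peak had PMVK as the nearest start among those named here.

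FDPS, the farnesyl diphosphate synthase, had its nearest peak 10236 bp past its start in the basal Millipore list, in its own intron at rank 1904 and with the consensus, and 15211 bp past it in the basal Perseus list, in an intron of RUSC1 at rank 1048 and also with the consensus. The context of the first consensus, 19 bases, occurs at 227 places in the genome, and that of the second once. In the overexpressed lists the nearest peaks were 44989 and 45014 bp away, at a site in an intron of CLK2 that ranked 553 in the basal Millipore list. Sites 76189 and 63939 bp upstream were shared by both overexpressed lists (ranks 7543 and 4930) and by both Perseus lists (ranks 1958 and 2681), without the consensus. Both consensus-bearing peaks were thus in basal lists, but at different places. FDFT1, the squalene synthase, had 1 peak within 10 kb, 5732 bp upstream in the overexpressed Millipore list at rank 8931. From the start of its Ensembl canonical transcript, 7168 bp inside the gene, this peak lay 12900 bp away, beyond the 10 kb limit. The remaining genes had no peak within 10 kb. MVK, the mevalonate kinase, had its closest at 32110 and 32060 bp in the overexpressed Millipore and Perseus lists, an overlapping pair. SQLE, the squalene epoxidase, had Perseus peaks at 93211 and 93161 bp, which at basal dosage lay 29 bp from the start of NSMCE2 and ranked 389 of 6616. ACAT2, the cytosolic thiolase, had Millipore peaks at 93248 and 93148 bp.

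The second group turns squalene epoxide into cholesterol. In the basal Perseus list 6 of its 9 genes had a peak within 10 kb and 3 within 1 kb, against 15.5% and 9.56% of all genes. The basal Millipore list had 0 at either distance, against 4.38% and 1.02% of all genes. The overexpressed Millipore list had 2 within 10 kb and 1 within 1 kb, against 19.0% and 8.19%. The overexpressed Perseus list had 3 and 2, against 17.1% and 10.5%. With the better-ranked 50% of the basal Perseus list, only DHCR7 of the 9 kept a peak within 10 kb, against 9.51% of all genes. LSS, the lanosterol synthase, had the densest promoter. With Millipore its nearest peaks lay 94063 bp away at basal and 288 bp at overexpressed dosage, and with Perseus 1112 and 238 bp away. In the overexpressed Perseus list, 3 peaks fell within 1 kb of the start, 238 and 763 bp past it and 562 bp upstream, at ranks 1509, 645 and 1100 of 7453. The peak at 238 bp, in a coding exon, overlapped that of the overexpressed Millipore list (rank 6626), the only site within 1 kb of any of the 36 genes that both antibodies found. At both dosages, then, LSS had promoter-proximal Perseus peaks, but the basal one lay outside 1 kb and overlapped none of the others. LSS also had an intergenic site 94163 bp past its start in all 4 lists. It ranked 166 at basal and 156 at overexpressed dosage with Millipore and 159 and 958 with Perseus, held no consensus and lay nearer to the start of FTCD.

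CYP51A1, the lanosterol demethylase, had Perseus peaks 167 bp past its start at basal dosage (rank 4198) and 842 bp past it at overexpressed dosage (rank 1715). These peaks did not overlap, and the nearest Millipore peaks were 737967 and 193742 bp away. SC5D, a sterol desaturase, had a basal Perseus peak 60 bp past its start at rank 5464 of 6616, whereas the overexpressed Perseus peak lay 17610 bp away and the Millipore peaks 1371060 and 268865 bp away. DHCR7 catalyses the last reduction to cholesterol. Its basal Perseus peak 261 bp upstream ranked 2090 and lay 20 bp from the start of NADSYN1, its neighbour on the other strand. From the start of the Ensembl canonical transcript of DHCR7 this peak lay 4736 bp upstream, beyond the 1 kb limit. The overexpressed Perseus list had no peak within 562264 bp. The Millipore distances for DHCR7 were 45611 bp at basal and 15364 bp at overexpressed dosage, and a site in its intron, 15314 bp past the start, was shared by the overexpressed Millipore and basal Perseus lists, with the consensus inside the Perseus peak only.

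TM7SF2, a sterol reductase, had 11 peaks over the lists in the most gene-dense neighbourhood, with 15 other protein-coding starts within 100 kb. The peak nearest to it, at 9283 bp in the basal Perseus list, had its centre in an intron of FAU. This peak also overlapped an annotated exon of FAU and held the consensus. A site 16833 bp past the start, at SYVN1, held it too and was in 3 lists, at rank 1435 with Millipore and 1481 with Perseus at basal dosage, and at 107 of 7453 with Perseus at overexpressed dosage. Both Perseus lists had a further consensus site 69333 bp past the start, 613 bp from that of CAPN1, at ranks 487 and 265. A site in VPS51, 15692 bp upstream, was shared by the overexpressed Millipore and basal Perseus lists at ranks 5675 and 2942. NSDHL, a sterol dehydrogenase, had peaks 2161 bp upstream in the overexpressed Millipore list (rank 4548, in an intron of CETN2 and nearer to that gene's start) and 3489 bp past its start in the overexpressed Perseus list (rank 6565), and none within 10 kb at basal dosage, where the nearest lay 639189 and 74014 bp away. The latter site, in an intron of ZNF185, held the core and was better placed at overexpressed dosage, at ranks 559 with Millipore and 108 with Perseus, than at basal dosage, at 3450 with Perseus. HSD17B7, a ketosteroid reductase of the same pathway, had 1 peak within 100 kb in all lists, 5208 bp past its start in the basal Perseus list at rank 6351 of 6616. MSMO1 and EBP, which demethylate and isomerise sterols, had none within 100 kb in any list. Their nearest peaks were 696731 and 240413 bp away.

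**Figure D3:**
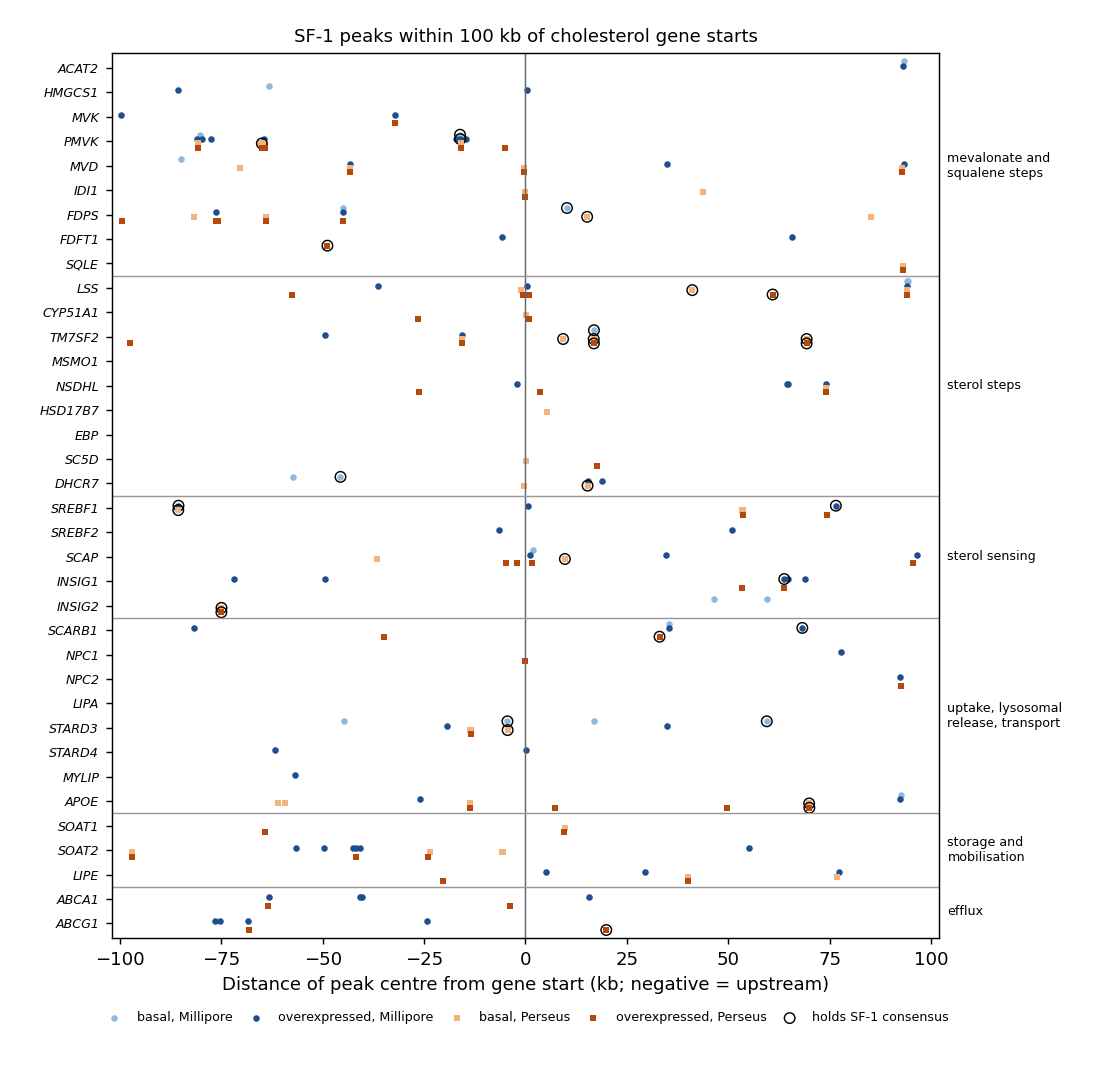
Signed distance of every peak within 100 kb from the start of each of the 36 genes (horizontal axis in kb, negative upstream), with genes in rows grouped by role and 1 mark per peak in the colour and shape of its list. Open rings mark peaks that hold the SF-1 consensus, and no ring lies within 1 kb of a start.

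Of the 5 genes of sterol sensing, SCAP, the escort of the SREBP proteins, was the only one of all 36 genes with a peak within 10 kb in every list, against 1.03% of all protein-coding genes. With Millipore its nearest peaks lay 1766 bp past the outermost start at basal and 1016 bp at overexpressed dosage, and with Perseus 9716 and 1641 bp past it. The peaks at 1766 and 1641 bp overlapped and ranked high, at 334 of 4393 and 608 of 7453, or in the better-ranked 7.60% and 8.16% of their lists. The overexpressed Millipore peak ranked 8165, and the overexpressed Perseus list had 2 more peaks, 2084 and 4884 bp upstream, at ranks 2327 and 5570. From the start of the Ensembl canonical transcript, which lies 1185 bp inside the gene, the same distances were 581, 169, 8531 and 456 bp, so SCAP had a peak within 1 kb of that start in 3 lists. The shared part of the site, chr3:47516801-47516999, overlaps an annotated exon of SCAP and held neither the consensus nor its core. The basal Perseus peak at 9716 bp held the consensus, in a 19-base context that occurs at 177 places in the genome, so that reads there may map ambiguously.

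SREBF1, one of the 2 SREBP genes, had a peak 691 bp past its start in the overexpressed Millipore list at rank 8716, against 369041 bp in the basal Millipore list and 53391 and 53641 bp in the Perseus lists. A consensus-bearing site 85559 bp upstream, in an intron of TOM1L2, was shared by the overexpressed Millipore and basal Perseus lists, and a site in an intron of RAI1 with the core, 53641 bp past the start, by both Perseus lists. SREBF2, the other, had its nearest peak 6559 bp upstream in the same Millipore list at rank 9102, in the 3′ UTR of CCDC134, and 469441, 720941 and 269609 bp away in the basal Millipore, basal Perseus and overexpressed Perseus lists. Both SREBP genes therefore had a peak within 10 kb only with the Millipore antibody at overexpressed dosage, and in the lower-ranked part of that list. INSIG1 and INSIG2, which retain SCAP, had no peak within 10 kb. INSIG1 had 5 overexpressed Millipore and 2 overexpressed Perseus peaks within 100 kb and no basal one. Its nearest peak lay 49436 bp upstream in the overexpressed Millipore list. INSIG2 had its nearest peaks 46447 and 59572 bp past its start in the basal Millipore list, at ranks 3936 and 3974. A site 74953 bp upstream of INSIG2, 659 bp from the start of CCDC93 in the overexpressed Perseus list, held the consensus. It ranked 1091 with Perseus at basal and 584 at overexpressed dosage.

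The 8 genes of uptake, lysosomal release and transport included 2 with a peak within 1 kb and 4 within 10 kb in any list, where the shares of all genes were 19.8% and 35.2%. STARD3, which moves sterol out of late endosomes, had a consensus-bearing site found with both antibodies. At basal dosage its nearest peaks lay 4443 bp upstream with Millipore and 4393 bp upstream with Perseus. These overlapped, with ranks 1244 and 5027. Their centres lay in an intron of the canonical PPP1R1B transcript, but the part common to both overlaps an annotated exon of that gene. At overexpressed dosage the nearest peaks were 19443 bp away with Millipore and 13468 bp away with Perseus, the latter overlapping a basal Perseus peak (ranks 4955 and 6428). The site was thus present in both basal lists and absent from both overexpressed ones. STARD4, a cytosolic sterol carrier, had 1 peak within 10 kb, in an intron 213 bp past its start in the overexpressed Millipore list at rank 11183 of 11910, against 646288, 1095637 and 229962 bp in the other lists. NPC1, which exports cholesterol from lysosomes, had a peak 30 bp upstream in the overexpressed Perseus list at rank 5977, with 370580 and 77820 bp for the basal and overexpressed Millipore lists and 133445 bp for the basal Perseus list.

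APOE, the ligand of lipoprotein receptors, had a peak 7202 bp past its start in the overexpressed Perseus list at rank 1869, nearer to APOC1 than to APOE. In the basal Millipore, overexpressed Millipore and basal Perseus lists the distances were 92552, 25923 and 13748 bp. Both Perseus lists shared the last site, in an intron of TOMM40 and without the consensus, and both Millipore lists shared the first, at ranks 3627 and 3766. SCARB1, the receptor that takes cholesteryl ester from high-density lipoprotein into steroidogenic cells, had no peak within 10 kb. Of its 6 peaks, 4 lay within the gene, 35289 bp past the outermost start in both Millipore lists (an overlapping pair, ranks 2306 and 6921), 33064 bp past it in the overexpressed Perseus list (rank 3415, with the consensus) and 68264 bp past it in the overexpressed Millipore list, in a coding exon (rank 1635, with the consensus). Because the canonical start of SCARB1 lies 18804 bp inside the annotated gene, the first of these was 16485 bp from it. NPC2, the partner of NPC1, and MYLIP, a ligase that marks lipoprotein receptors for degradation, had peaks beyond 50 kb only, at 92255 and 92480 bp and at 56792 bp. LIPA, the lysosomal acid lipase, had none within 100 kb of its outermost start, but its canonical start lies 162782 bp away from that position and had an overexpressed Millipore peak at 11007 bp.

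Storage and mobilisation comprised 3 genes, all with a peak within 10 kb in some list, where the share of all genes was 35.2%. SOAT1, the enzyme that esterifies cholesterol in the adrenal cortex, had the same intronic site in both Perseus lists, 9651 bp past the start at basal and 9626 bp at overexpressed dosage. It ranked 817 of 6616 at basal and 6691 of 7453 at overexpressed dosage, from the better-ranked 12.3% of one list to 89.8% of the other. The nearest Millipore peaks were 298049 and 211274 bp away. SOAT2, the related enzyme of liver and gut, had a basal Perseus peak 5470 bp upstream at rank 1210, but this lay in a coding exon of IGFBP6, 580 bp from that gene's start, and a second one 5820 bp upstream lay 230 bp from it. Its better-ranked distal peaks likewise stood at other promoters, 22 bp from the start of TNS2 (rank 351, overexpressed Millipore) and 84 bp from that of EIF4B (rank 647, basal Perseus, with an overlapping overexpressed Perseus peak at 1884). Both overexpressed lists shared a site in an intron of TNS2, 41695 bp upstream, at ranks 8054 and 4557. Its distances in the basal Millipore, overexpressed Millipore and overexpressed Perseus lists were 138620, 40820 and 23970 bp. LIPE, the hormone-sensitive lipase that frees cholesterol from esters, had the best-ranked Millipore peak within 10 kb of any of the 36 genes at overexpressed dosage, in its own intron 5115 bp past the outermost start at rank 837 of 11910. It was in no other list. A site in CNFN, 39990 bp past the start, was in both Perseus lists at ranks 4843 and 772. The basal Millipore distance was 337035 bp and the Perseus distances 39990 and 20260 bp.

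The efflux pumps ABCA1 and ABCG1, which load cholesterol onto lipoproteins, had no basal peak within 100 kb with either antibody. At overexpressed dosage ABCA1 had 4 Millipore peaks and 2 Perseus peaks in that range, the best ranked at 688 in its intron, 15561 bp past the start, and the nearest 3889 bp upstream at rank 5061 in the Perseus list. ABCG1 likewise had 4 and 2. Its nearest peak lay 19926 bp past the outermost start in the overexpressed Perseus list at rank 4486, which is 475 bp past the canonical start, and it held the consensus. Its best-ranked peaks, at 405 and 558 in the overexpressed Millipore list, lay upstream in an intron of UMODL1, as did a site 68074 bp upstream shared by both overexpressed lists at ranks 1632 and 2377. INSIG1, MVK, SREBF2, STARD4, MYLIP, NPC1, NPC2 and FDFT1 also had peaks within 100 kb at overexpressed dosage and none at basal dosage with either antibody. The share of all genes with that pattern over both antibodies was not counted, so it is unknown whether the pattern is commoner among the cholesterol genes. By antibody, 14 of the 36 genes, or 38.9%, had such a peak at overexpressed dosage only with Millipore, against 38.2% of all genes. With Perseus 8 did, or 22.2%, against 15.4%.

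Consensus sites near the genes are set side by side below. The consensus was present in 23 of the 156 loci formed by joining overlapping peaks within 100 kb of a start. Of these 23 loci, 10 were found in 2 or more lists and 13 in 1 list. The consensus sites printed are some of those in the 10 shared loci, together with that of ABCG1, which lies near the canonical start. The lists named are those whose peaks overlap at the locus. Each is written 5′ to 3′ on the strand that holds the consensus, in capitals, with 10 bases to each side, on hg19.

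TM7SF2, chr11:64896206-64896234, minus strand, in 3 lists: accttggatgCCAAGGCCAggcccgcctc

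STARD3, chr17:37788895-37788923, plus strand, in both basal lists: tgccgcgtccCCAAGGTCAgggtagggtg

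INSIG2, chr2:118771083-118771111, plus strand, in both Perseus lists: ggtagacgtcCCAAGGTCAccacccgagc

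TM7SF2, chr11:64948686-64948714, plus strand, in both Perseus lists: agggacttacCCAAGGTCAcgcagcgagc

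DHCR7, chr11:71148666-71148694, plus strand, overexpressed Millipore and basal Perseus overlapping and the site inside the Perseus peak: agggacatacTCAAGGCCAcctccctggc

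SREBF1, chr17:17825855-17825883, plus strand, in the overexpressed Millipore and basal Perseus lists: agcatgttggTCAAGGTCAtggctttgaa

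INSIG1, chr7:155153294-155153322, plus strand, both overexpressed lists overlapping and the site inside the Millipore peak: tactggcttgCCAAGGTCAcacagccaat

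ABCG1, chr21:43639690-43639718, minus strand, in the overexpressed Perseus list: agccatcaggTCAAGGCCAtcggtccaac

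SOAT1, chr1:179272401-179272549, plus strand, the part common to both Perseus lists, with the core in capitals: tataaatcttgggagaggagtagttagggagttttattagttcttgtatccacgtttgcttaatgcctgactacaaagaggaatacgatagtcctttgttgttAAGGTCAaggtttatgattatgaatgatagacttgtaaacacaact

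Among the 22 consensus sites whose letters were tallied, which leaves out 1 locus near FDFT1, CCAAGGTCA was the commonest form with 9 sites, followed by TCAAGGCCA with 5 and TCAAGGTCA with 4. A site shared by both Perseus lists near APOE, 69990 bp past its start, was also a consensus site, but its 19-base context occurs at 144 places in the genome and it is not printed. For STARD3, INSIG2, DHCR7, SREBF1, ABCG1 and the SYVN1 site of TM7SF2 as printed, the context occurs once, and for INSIG1 and the CAPN1 site of TM7SF2 at 7 and 4 places.

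None of the 16 peaks within 1 kb of a start held the consensus, nor did any hold the core, and 4 of the 39 peaks within 10 kb held it. So few peaks do not separate these starts from those of other genes. Over all protein-coding genes, 20.7%, 9.91%, 14.5% and 10.9% of the peaks within 1 kb of a start held it in the basal and overexpressed Millipore and the basal and overexpressed Perseus lists. The 16 peaks within 1 kb were rich in GC, from 54.2% to 76.8% with a median of 70.3%, against a median of 59.7% for those beyond 10 kb. The GC of peaks within 1 kb of other genes was not taken, so this contrast is not particular to the cholesterol genes. Within 100 kb the share of peaks with the consensus was 28.6% (13.8 to 49.96%) of 21 basal Millipore peaks, 6.94% (3.00 to 15.2%) of 72 overexpressed Millipore peaks, 24.5% (14.6 to 38.1%) of 49 basal Perseus peaks and 12.9% (6.69 to 23.4%) of 62 overexpressed Perseus peaks. The same shares over all peaks of each list were 16.0%, 10.9%, 21.6% and 17.2%, each within the interval of the share near the cholesterol genes. With both antibodies the share was lower at overexpressed than at basal dosage, near these genes as over the whole lists, and the intervals overlapped. The core alone was present in 19.0%, 12.5%, 18.4% and 12.9% of the peaks near the genes, against 13.9%, 9.89%, 16.6% and 14.0% of the lists.

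In each list the share of peaks that overlapped another list was higher near the cholesterol genes than over the whole list. For the overexpressed Perseus list the interval held the share of the whole list. A shared site counts in each of its lists, so the 4 comparisons are not independent. The whole lists also include peaks far from any gene. An overlap of at least 1 bp with a peak of another list was found for 10 of 21 basal Millipore peaks, or 47.6% (28.3 to 67.6%) against 20.9% of the list, and for 19 of 72 overexpressed Millipore peaks, or 26.4% (17.6 to 37.6%) against 16.6%. It was found for 26 of 49 basal Perseus peaks, or 53.1% (39.4 to 66.3%) against 37.7%, and for 30 of 62 overexpressed Perseus peaks, or 48.4% (36.4 to 60.6%) against 37.9%. In the Perseus lists these peaks also lay more often within 1 kb of some protein-coding start, 38.8% (26.4 to 52.8%) against 26.4% at basal and 37.1% (26.2 to 49.5%) against 26.6% at overexpressed dosage. Whether promoter position and sharing went together from peak to peak was not tested. The Millipore peaks near the genes lay within 1 kb of some start in 4.76% against 4.19% at basal and 11.1% against 12.6% at overexpressed dosage. When overlapping peaks were joined across lists, the 204 peaks formed 156 loci, of which 37 were found in 2 or more lists. The consensus was present in 10 of these, or 27.0% (15.4 to 43.0%), and in 13 of the 119 found in 1 list, or 10.9% (6.50 to 17.8%). The shared loci were wider, with a median of 249 bp against 149 bp.

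**Figure D4:**
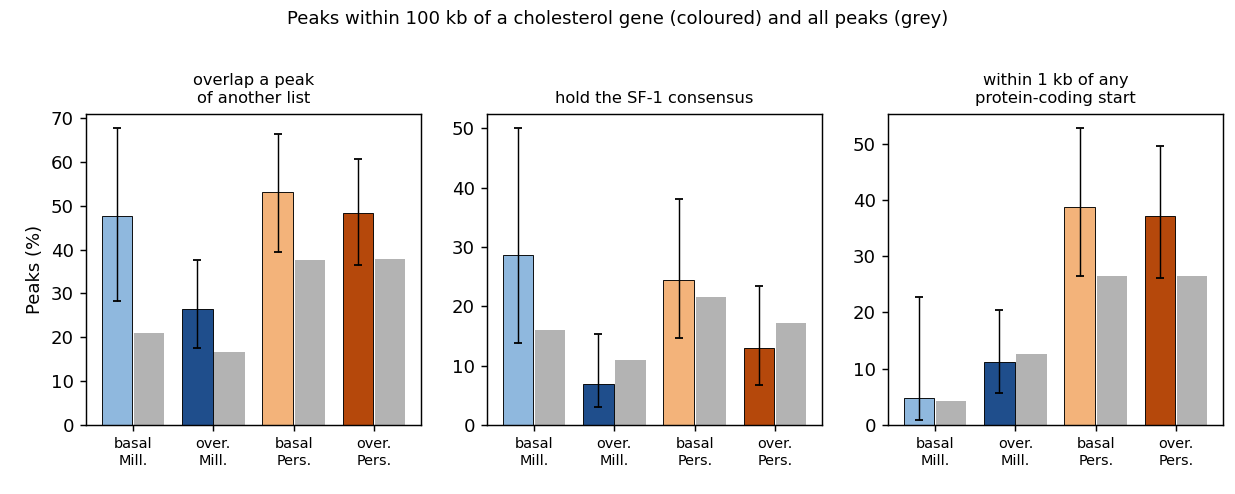
Percent of peaks (vertical axes, from 0, each panel with its own scale) that overlap a peak of another list, hold the SF-1 consensus, or lie within 1 kb of any protein-coding start. Coloured bars with 95% Wilson intervals are peaks within 100 kb of the 36 genes in the basal and overexpressed (over.) Millipore (Mill.) and Perseus (Pers.) lists and grey bars are all peaks of the list, and the coloured bar is the taller one in every list for overlap, for example 47.6% against 20.9% in the basal Millipore list.

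By rank the peaks near the cholesterol genes were spread over the lists. Their median rank, as a percent of the length of the list, was 52.5% at basal and 39.1% at overexpressed dosage with Millipore, and 49.9% and 44.5% with Perseus. In the better-ranked 10% of the 4 lists in this order lay 2 of 21, 9 of 72, 6 of 49 and 7 of 62 of them. These were 9.52% against 9.99% of the basal Millipore list, 12.5% against 10% of the overexpressed Millipore list, 12.2% against 9.99% of the basal Perseus list and 11.3% against 10% of the overexpressed Perseus list. Within 1 kb of a start, the best-placed peak stood at 8.65% of the overexpressed Perseus list (LSS), 31.6% of the basal Perseus list (DHCR7) and 55.6% of the overexpressed Millipore list (LSS).

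The promoters of the genes were also compared by sequence alone. RefSeq promoters on GRCh38.p14, from 250 bases before to 50 bases after the start, were matched for 30 of the 36 genes and for 15318 protein-coding genes. The SF-1 consensus was present in 1 of the 30, that of LIPA, against 2.40% of all promoters, and its core in none, against 3.12%. The word TCACNCCAC, a form of the sterol regulatory element bound by SREBP proteins, was present in that of SREBF2 alone, or 3.33% (0.591 to 16.7%) against 1.18%. The CCAAT box, the word CCAAT on either strand, was present in 20 of the 30, or 66.7% (48.8 to 80.8%), against 36.6% of all promoters. Of the 10 genes with a peak within 1 kb in any list, DHCR7, HMGCS1, LSS, MVD, SC5D and STARD4 were among these 20. CYP51A1, IDI1, NPC1 and SREBF1 were not, either without the word or without a matched promoter. The IDI1 peak stretch printed above does hold the word, so this count does not show that the IDI1 promoter lacks it.

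Other genes of the pathway, listed by function, were counted the same way. Of 24 further sterol genes, 9 had a peak within 10 kb in any list and 22 within 100 kb, against 23 and 33 of the 36 cholesterol genes. The shares of all protein-coding genes in any list were 35.2% and 79.9%. Within 1 kb the counts with Millipore were 0 at basal and 2 at overexpressed dosage, and with Perseus 0 and 3, namely GGPS1, GRAMD1B, NCEH1, PLIN2 and STARD5. In the same order 0, 4, 1 and 5 of them had a peak within 10 kb, where the 36 cholesterol genes gave 2, 9, 12 and 11. Of 11 genes that carry cholesterol on to steroids, 7 had a peak within 10 kb in any list and all 11 within 100 kb. By list, 0, 2, 1 and 1 of these had one within 1 kb (CYP11A1, FDX1, POR and STAR), and 1, 5, 3 and 5 within 10 kb. Over all genes the shares by list were 1.02%, 8.19%, 9.56% and 10.5% within 1 kb. Within 10 kb they were 4.38%, 19.0%, 15.5% and 17.1%.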

How the data were processed

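SF-1 ChIP-seq peak lists of H295R/TR SF-1 cells were analysed, 1 per combination of dosage and antibody. Per the study's methods, the authors mapped reads to hg19 with ELAND v2 and called peaks against input DNA with the SeqPeak program of CisGenome v2, on all libraries of a condition at once. The submitters' processing notes also name CASAVA 1.6. The 2 input libraries have no list and were not used. Each deposited list holds positions, a rank and a score column that is 1000 throughout, so only positions and ranks were used. Depth is unknown, and a longer list can come from more reads.

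Positions were compared with GRCh37, which is hg19, and GENCODE version 44 mapped to it. Promoter GC was taken over 1000 bp centred on the start, and all genes were weighted to the members' GC in bins of 5 points, without drawing genes. No tests were made, because no list has a replicate. Genes within 10 kb of a peak are described peak by peak, and others by their nearest peak, with peaks beyond 10 kb named where shared or in the better-ranked 10% of a list, apart from a shared site that is not reported here. The genes and lists were chosen with earlier results of these data known, and the printed sites beyond 10 kb were picked after their values were seen. Counting was tested on simulated data with planted peaks and words. Alternatives were other starts, peak edges, stricter ranks, equal list lengths, an overlap of 50% and the core. Sequences were read with samtools 1.23.1 and pysam 0.24.0, counts made with pandas 2.3.3 and numpy 2.4.6 under Python 3.11.15, and intervals computed with scipy 1.17.1.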

Additional observations from a re-analysis of the deposited data

Results flagged for a closer look

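With the Millipore antibody 7 more of the 36 genes had a peak within 10 kb at overexpressed than at basal dosage (9 against 2), whereas with the Perseus antibody the number changed by -1 (11 against 12). The directions are opposite, and the difference between the antibodies was not tested, since each value comes from 1 list. Over all protein-coding genes the share within 10 kb went from 4.38% to 19.0% with Millipore and from 15.5% to 17.1% with Perseus.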

How the results depend on the processing

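Of 88 recomputed values, 67 stayed within 1.5 times the reported count or within the interval of the reported share, and 21 did not. Keeping the better-ranked 50% of a list lowered the counts of genes within 1 kb to 0 for overexpressed Millipore, 3 for basal Perseus and 2 for overexpressed Perseus, within 10 kb to 2, 5 and 4 in the same lists, and within 100 kb to 7 for basal Millipore and 17 for overexpressed Perseus. It also lowered the share of overexpressed Perseus peaks found in another list to 35.3%. With 4393 peaks in every list, the counts within 1 kb were 0 for overexpressed Millipore and 2 for overexpressed Perseus, and within 10 kb 1 for overexpressed Millipore, 7 for basal Perseus and 4 for overexpressed Perseus. Both settings use fewer peaks by construction. Counting any transcript start raised the genes within 1 kb to 3 for basal Millipore (FDPS, SCAP and STARD3) and to 7 for overexpressed Millipore. The canonical start gave 1 for basal Millipore (SCAP), and counting only peaks nearest to the gene's own start gave 4, 15, 11 and 16 genes within 100 kb in the 4 lists; these 2 settings were chosen after seeing the data. Measuring from the peak edge, asking for an overlap of 50%, or using the core moved no value beyond those limits. No paired analysis was possible because each group is a single list of pooled libraries. With 36 genes and single lists, differences of a few genes could not be told from counting error.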
